A study of Mus musculus with 18 samples.

Results

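The genes described here are 9 members of the cholesterol efflux and ester pathway: Abca1, Abcg1, Apoe, Scarb1, Soat1, Lipa, Npc1, Npc2 and Mylip. They were chosen by symbol from the 52093 symbols of the deposited tables, and each had a single row there. Their RNA was measured in 3 adipose depots of male wild-type C57BL/6 mice after 12 weeks of high-fat diet (HFD), with 6 libraries a depot and 18 in all. For inguinal and epididymal white adipose tissue (iWAT and eWAT), tissue was digested with collagenase and the floating layer of mature adipocytes was taken. Brown adipose tissue (BAT) was frozen whole, so it holds every cell type of that tissue. All groups shared the diet, the sex and the genotype, and no lean group is analysed here. One label field names regular chow, against the titles and the protocol, and the strain is written as C57BL/6J in the protocol. BAT is called a tissue in its source label and adipocytes in its cell type label.

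Cells cannot break down the ring of cholesterol, so they store it or export it. ABCA1 passes cholesterol and phospholipid to lipid-poor apolipoproteins, ABCG1 passes cholesterol to HDL particles, and SCARB1, the HDL receptor, moves cholesterol ester and free cholesterol between HDL and the cell membrane. SOAT1 esterifies cholesterol for storage in droplets, LIPA hydrolyses the esters and triglycerides that reach the lysosome, and NPC2 and NPC1 hand the freed cholesterol on through the lysosomal membrane. APOE is an apolipoprotein that accepts cholesterol, and MYLIP, also called IDOL, is a ubiquitin ligase that limits the uptake of lipoprotein cholesterol. Abca1, Abcg1, Apoe and Mylip are known targets of the liver X receptors (LXR), which sense oxysterols. Adipose tissue holds a large share of the body's free cholesterol, and lipid-laden macrophages of obese fat use the same genes.

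Sequencing gave between 24655056 and 42518483 reads on the rows of a library. The 9 genes took 0.231 to 0.268% of the reads behind the RPKM values in iWAT, 0.377 to 0.496% in eWAT and 0.0545 to 0.0772% in BAT. Levels are given as deposited RPKM (reads per kilobase of the row, scaled to the total of the library). Fold changes come from edgeR on the counts with TMM scaling, which rescales each library so that most genes do not differ; the mean TMM factor was 1.21 in iWAT, 1.27 in eWAT and 0.658 in BAT. Without that scaling, all genes together had a median log2 fold change of 0.87 for iWAT over BAT and 0.89 for eWAT over BAT, so the RPKM of the white depots stand further above BAT than the scaled folds do. The depots matched their labels: Ucp1, the uncoupling protein of brown fat, averaged 1858 ± 237 RPKM in BAT (SD, n = 6) against 2.26 ± 0.591 in iWAT and 0.261 ± 0.0844 in eWAT. Adipoq, which encodes adiponectin, averaged 1127 ± 166, 387 ± 178 and 221 ± 29.5 RPKM in iWAT, eWAT and BAT.

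The adipocyte preparations also carried macrophage RNA. Cd68 averaged 140 ± 32.8 RPKM in iWAT, 567 ± 93.3 in eWAT and 3.11 ± 0.813 in BAT, and Adgre1 (Emr1 in the tables) 23.0 ± 5.95, 106 ± 19.3 and 0.635 ± 0.193. The summed RPKM of 16 macrophage markers ran from 805 to 1525 in iWAT, from 4796 to 7469 in eWAT and from 49.8 to 97.2 in BAT, with no marker at 0 in any depot. All 16 were higher in eWAT than in iWAT and higher in either white depot than in BAT. All 8 adipocyte markers were higher in iWAT than in eWAT. Their sum ran from 11566 to 16333 RPKM in iWAT, from 2598 to 8019 in eWAT and from 5781 to 7108 in BAT. For iWAT against BAT, edgeR with TMM scaling called 5 of the 8 higher in iWAT and 2 higher in BAT. For eWAT against BAT, 2 were called higher in eWAT and 4 higher in BAT. The sum of 6 endothelial markers ran from 106 to 305 RPKM in iWAT, from 37.3 to 78.7 in eWAT and from 73.7 to 108 in BAT. In these bulk samples, fewer cells of a type and less RNA per cell cannot be told apart, and the part of the other cell types in the results below was not tested except where a value is given.

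Apoe was the most abundant of the 9 genes in each depot, with a mean level above that of 99.8% of the 19941 genes with at least 10 reads on average in iWAT and in eWAT and of 98.9% in BAT. It took 75.6% ± 3.38 of the summed RPKM of the 9 genes in iWAT, 63.2% ± 4.33 in eWAT and 70.4% ± 4.94 in BAT (SD, n = 6). In iWAT it was followed by Npc2, Lipa, Mylip, Abca1, Scarb1, Abcg1, Soat1 and Npc1, and the neighbours Mylip and Abca1 (Mylip higher in 3 of 6 libraries) and Scarb1 and Abcg1 (Scarb1 higher in 4 of 6) did not differ beyond their spread. In eWAT the order was Apoe, Lipa, Npc2, Soat1, Abcg1, Abca1, Npc1, Mylip and Scarb1. There Abcg1 lay above Abca1 in 3 of 6 libraries and Mylip above Scarb1 in 3 of 6, so neither pair could be ordered, and Npc1 lay above Mylip in 5 of 6. In BAT the order was Apoe, Npc2, Lipa, Mylip, Abca1, Scarb1, Npc1, Abcg1 and Soat1, with Mylip above Abca1 in 4 of 6 libraries and Scarb1 above Npc1 in 3 of 6. Soat1 thus stood at place 4 in eWAT, 8 in iWAT and 9 in BAT. These levels and the share of Apoe rest on the length of each row, which for Scarb1 was 8521 bases against 2521 in its longest coding GENCODE transcript. The row of Apoe had its GENCODE length, while those of the other genes were 1.06 (Mylip) to 3.38 (Scarb1) times theirs. With GENCODE lengths the share of Apoe is therefore lower in each depot. In eWAT Apoe then averaged 778 against 508 for Lipa and lay above it in 5 of 6 libraries. With GENCODE lengths, Scarb1 moved up to place 4 in iWAT and in BAT and to place 6 in eWAT, while Apoe stayed first and Soat1, still at place 4 in eWAT and at place 9 in BAT, moved to place 9 in iWAT as well, below Npc1 in 5 of 6 libraries.

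**Figure D1:**
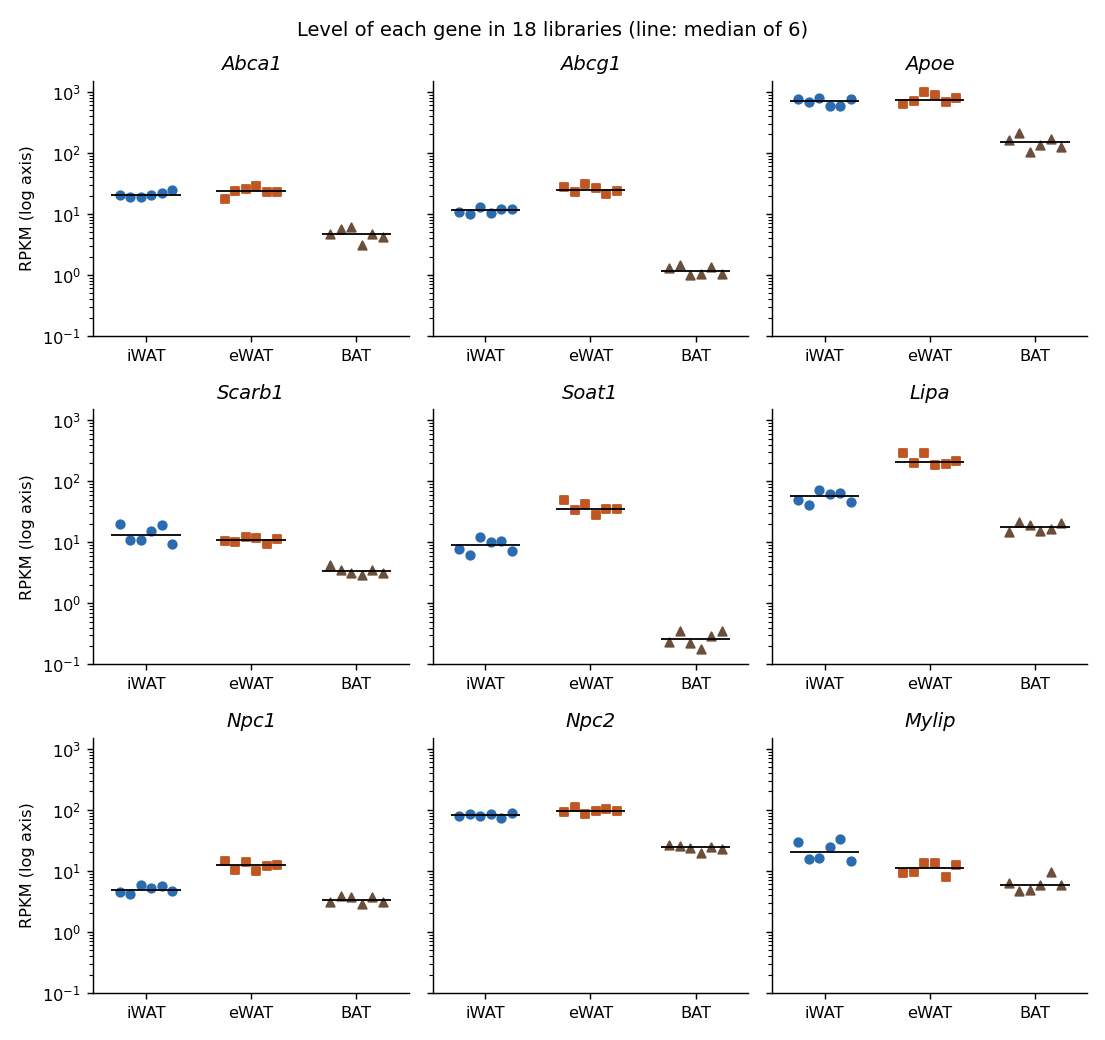
Deposited RPKM of the 9 genes on a log axis in the 6 libraries each of iWAT adipocytes (circles), eWAT adipocytes (squares) and BAT (triangles), with a line at the median. Soat1, Lipa, Abcg1 and Npc1 lie higher in eWAT than in iWAT with no overlap, Mylip lies lower, and Soat1 in BAT sits between 0.181 and 0.359 RPKM.

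Between the white depots, 6 of the 9 genes passed the threshold (edgeR quasi-likelihood test, Benjamini-Hochberg adjusted p under 0.05 over 19623 genes). Abcg1, Soat1, Lipa, Npc1 and Npc2 were higher in eWAT, Mylip was higher in iWAT, and Abca1, Apoe and Scarb1 did not pass. Of all genes tested, 68.6% passed, 34.1% as higher in iWAT and 34.5% as higher in eWAT; the count of 6 is a share near that of all genes. The 9 genes had a median log2 fold change of iWAT over eWAT of -0.24, against 0.0014 over all genes. For 5 of the 9 the 2 groups did not overlap on TMM-scaled RPKM, where 43.5% of all genes did not. Tested against a log2 fold change of 1, 3 of the 9 passed (Soat1, Lipa and Npc1), against 11.2% of all genes.

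Against BAT, the direction was shared. In iWAT 8 of the 9 genes were higher than in BAT and Npc1 did not pass, with a median log2 fold change of 1.43 against 0.014 over all genes. Of the 19745 genes tested there, 75.3% passed, of which those higher in iWAT made up 38.1% of all genes and those higher in BAT 37.2%. In eWAT 8 of the 9 were higher than in BAT and Mylip did not pass, with a median of 1.74 against -0.017 over all genes. Of 20076 genes tested there, 82.5% passed, 41.1% as higher in eWAT and 41.4% as higher in BAT. The groups did not overlap for 8 of the 9 genes in both comparisons with BAT, against 56.4% of all genes for iWAT and 66.3% for eWAT. Past a log2 fold change of 1 there were 6 genes for iWAT (29.2% of all genes) and 7 for eWAT (40.7%). The 3 comparisons share the libraries of each depot and are not independent. BAT differs from the white depots also in its preparation and in its sequencing lanes (BAT in lanes 3 and 4, white depots in lanes 1 and 2), and these cannot be told apart from the depot.

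**Figure D2:**
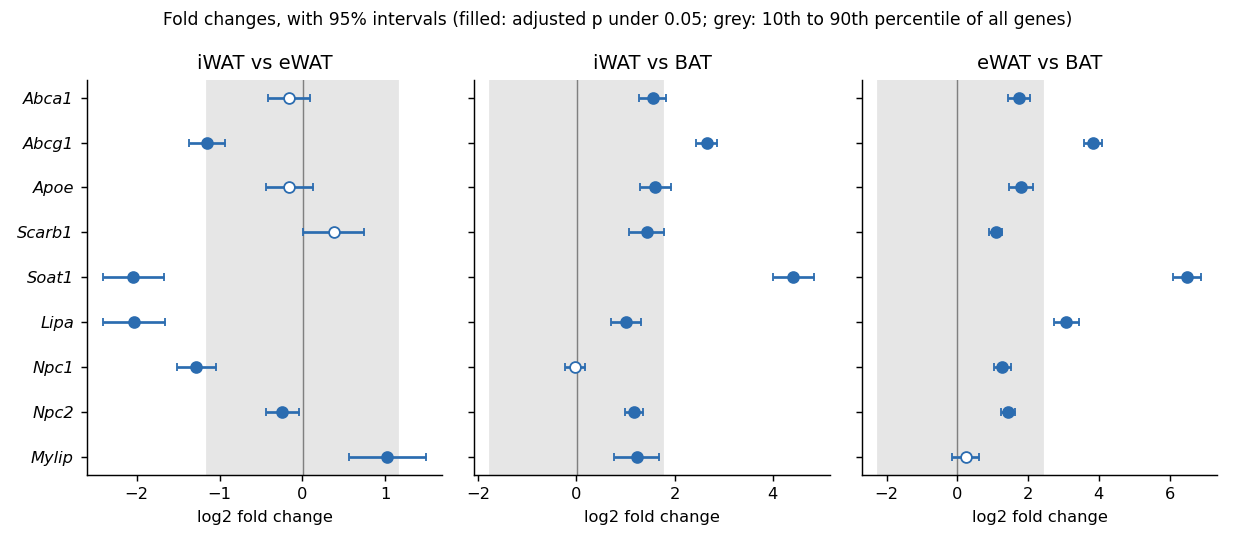
Log2 fold change of each gene (first depot over second) with its 95% interval, in the 3 comparisons, with filled points where the adjusted p was under 0.05; the grey band spans the 10th to the 90th percentile of all genes and the grey line is their median. Soat1 and Lipa stand at -2.04 and -2.03 between the white depots, left of the band, and 8 of 9 points pass to the right of 0 in either comparison with BAT.

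The 2 efflux transporters behaved differently. Abca1 (mm9 chr4:53043659-53172767, minus strand, 50 exons in its row) had 18.8 RPKM in its lowest iWAT library, a median of 20.5 and a highest value of 24.96. In eWAT it ran from 17.6 through 23.3 to 29.1 RPKM, and in BAT from 3.06 through 4.74 to 6.00. The white depots overlapped over most of their range, and each library of both lay above all of BAT. Abca1 was not called between iWAT and eWAT (log2 fold change -0.16, SE 0.11, 95% interval -0.42 to 0.09, edgeR adjusted p = 0.23); within lane 1 the value was -0.35 and within lane 2 it was 0.14. Without eWAT replicate 1 it just passed (log2 -0.24, edgeR adjusted p = 0.049). It was 2.93-fold higher in iWAT than in BAT (log2 1.55, SE 0.12, edgeR adjusted p = 1.5e-08) and 3.34-fold higher in eWAT than in BAT (log2 1.74, SE 0.14, adjusted p = 1.4e-08).

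Abcg1 (mm9 chr17:31194639-31254929, plus strand) separated all 3 depots. Its iWAT libraries held 9.99 to 13.1 RPKM with a median of 11.4, its eWAT libraries 21.4 to 31.3 with a median of 24.9, and its BAT libraries 1.004 to 1.47 with a median of 1.163. No library of a depot reached the range of another. Abcg1 was 2.22-fold higher in eWAT than in iWAT (log2 -1.15 for iWAT over eWAT, SE 0.10, edgeR adjusted p = 7.2e-07). Over BAT it was 6.28-fold higher in iWAT (log2 2.65, SE 0.10, adjusted p = 2.6e-12) and 14.2-fold higher in eWAT (log2 3.83, SE 0.11, adjusted p = 2.8e-13).

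The promoter of Abca1 is shown because LXR with its partner RXR is known to bind direct repeats of a hexamer spaced by 4 bases, and the window before its start holds such a pair of half-sites. The window is the 250 bases before the start in RefSeq (GRCm38.p6). It was found once, by exact match, in the mm9 genome of the tables at chr4:53172768-53173017 on the minus strand, where it abuts the 5′ end of the deposited row. Capitals mark the match to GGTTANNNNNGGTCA, here on the opposite strand and 52 bases before the start, a pattern written after the sequence had been seen. The pattern leaves the first base of each hexamer free. Its open letters are thus the 4 bases of the spacer and the first base of the second hexamer.
Abca1: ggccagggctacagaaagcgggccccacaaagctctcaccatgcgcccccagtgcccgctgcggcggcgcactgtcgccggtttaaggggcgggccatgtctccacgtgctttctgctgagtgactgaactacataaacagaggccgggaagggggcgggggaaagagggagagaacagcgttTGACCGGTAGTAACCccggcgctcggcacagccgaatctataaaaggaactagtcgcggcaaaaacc
Searched on both strands, this pattern was found in 15 of 32851 RefSeq windows of the same length (0.0457%), and in none of the windows of Apoe, Lipa, Mylip, Npc2 and Soat1. The table matched 6 of the 9 genes, and windows of Abcg1, Scarb1 and Npc1 were not used here. A match of letters is a description of the window, and none of these data measure binding.

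Apoe (mm9 chr7:20281458-20284515, minus strand), the acceptor, had iWAT values of 583, 714 and 780 RPKM at the lowest, median and highest library. The eWAT values were 641, 746 and 980 and the BAT values 104, 148 and 211 RPKM. The white depots overlapped, and the highest BAT library lay below every white one. Between the white depots the log2 fold change was -0.16 (SE 0.13, 95% interval -0.44 to 0.12, edgeR adjusted p = 0.28). The macrophage marker Cd68 differed there by -2.01 (SE 0.16, edgeR adjusted p = 4.1e-07), and like Apoe it was higher in either white depot than in BAT. Which cells gave the Apoe RNA was not tested. Apoe was 3.05-fold higher in iWAT than in BAT (log2 1.61, SE 0.14, adjusted p = 5.8e-08) and 3.46-fold higher in eWAT (log2 1.79, SE 0.15, adjusted p = 2.5e-08).

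Scarb1 (mm9 chr5:125757457-125821464, minus strand), the HDL receptor, varied more among the iWAT libraries than in the other depots. There it ran from 9.26 through 13.0 to 19.8 RPKM, with replicates 1, 4 and 5 at 19.8, 15.1 and 19.5 and the other 3 at 11.0 or lower. In eWAT it kept between 9.33 and 12.1 RPKM (median 11.1) and in BAT between 2.90 and 4.33 (median 3.34). Its coefficient of variation was thus 32.5% in iWAT against 10.1% in eWAT. Scarb1 just missed the threshold between the white depots (log2 0.38, SE 0.16, edgeR adjusted p = 0.055), and leaving out iWAT replicate 2, 3 or 16 brought it past (adjusted p = 0.040, 0.030 and 0.015). It was 2.70-fold higher in iWAT than in BAT (log2 1.43, SE 0.16, adjusted p = 7.5e-07) and 2.12-fold higher in eWAT (log2 1.08, SE 0.09, adjusted p = 1.5e-08). A row on the opposite strand, LOC100503284, overlaps Scarb1 and held 453 to 823 reads in iWAT beside 2460 to 5030 on Scarb1, and since the strand setting of the counting is not given in the sources used here, reads of the pair cannot be told apart.

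Soat1 (mm9 chr1:158358239-158404459, minus strand), the esterifying enzyme, differed most between depots of the 9 genes as a ratio, whereas in RPKM Apoe and Lipa spanned more. In iWAT it lay between 6.29 and 12.2 RPKM with a median of 8.99. In eWAT it lay between 28.5 and 48.5 with a median of 34.9, and in BAT between 0.181 and 0.359 with a median of 0.259, from 24 to 80 reads a library. The 3 depots did not overlap. Soat1 was 4.11-fold higher in eWAT than in iWAT (log2 -2.04 for iWAT over eWAT, SE 0.17, edgeR adjusted p = 5.4e-07), 21.4-fold higher in iWAT than in BAT (log2 4.42, SE 0.19, adjusted p = 1.2e-11) and 90.1-fold higher in eWAT than in BAT (log2 6.49, SE 0.18, adjusted p = 1.6e-13). The other SOAT enzyme, Soat2, had too few reads to be tested in any comparison.

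Lipa (mm9 chr19:34566806-34601964, minus strand), the lysosomal acid lipase, showed 40.8, 56.6 and 72.1 RPKM at the lowest, median and highest iWAT library. In eWAT the values were 187, 207 and 295 RPKM, and in BAT 15.1, 18.1 and 21.2. Again no library of a depot fell within another depot's range, and in eWAT replicates 1 and 3 stood apart at 292 and 295. Lipa was 4.09-fold higher in eWAT than in iWAT (log2 -2.03 for iWAT over eWAT, SE 0.17, edgeR adjusted p = 5.4e-07), close in size to Soat1. Over BAT it was 2.02-fold higher in iWAT (log2 1.02, SE 0.14, adjusted p = 6.6e-06) and 8.45-fold higher in eWAT (log2 3.08, SE 0.16, adjusted p = 7.2e-11). The opposite-strand row AK151849 lies over Lipa and held 8238 to 18626 reads in eWAT beside 32492 to 78587 on Lipa, so the Lipa values are uncertain by the share that cannot be assigned to a strand.

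The windows before the starts of Soat1 and Lipa are shown because these genes moved together between the white depots. They lie in mm9 at chr1:158404460-158404709 and chr19:34601965-34602214, both on the minus strand, each found once by exact match and each abutting the 5′ end of its row. Capitals mark GGAAGT, a core bound by ETS factors such as the myeloid factor PU.1, which was chosen after the windows had been seen.
Soat1: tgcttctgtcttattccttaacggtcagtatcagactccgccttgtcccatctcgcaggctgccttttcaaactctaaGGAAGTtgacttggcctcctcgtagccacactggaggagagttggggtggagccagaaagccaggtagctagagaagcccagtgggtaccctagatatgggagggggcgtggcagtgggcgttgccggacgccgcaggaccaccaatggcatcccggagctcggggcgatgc
Lipa: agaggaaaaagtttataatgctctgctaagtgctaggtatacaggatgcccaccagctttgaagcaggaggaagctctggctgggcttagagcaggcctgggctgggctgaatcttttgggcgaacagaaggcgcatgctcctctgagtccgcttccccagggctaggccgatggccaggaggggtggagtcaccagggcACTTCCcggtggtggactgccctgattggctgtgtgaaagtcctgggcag
Each window held a single match on either strand, in Soat1 as written and 166 bases before the start, in Lipa on the opposite strand and 44 bases before the start. The motif was in 19.7% of the 32851 windows of this length, and in none of those of Abca1, Apoe, Mylip and Npc2. A match that common describes the window only.

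Npc1, the membrane protein that takes cholesterol out of the lysosome, held 4.25 to 5.77 RPKM in iWAT (median 4.93). Its eWAT libraries held 10.0 to 14.5 RPKM (median 12.3) and its BAT libraries 2.85 to 3.83 (median 3.37). Every eWAT library lay above both other depots. Npc1 was 2.43-fold higher in eWAT than in iWAT (log2 -1.28 for iWAT over eWAT, SE 0.11, edgeR adjusted p = 6.2e-07) and 2.42-fold higher in eWAT than in BAT (log2 1.27, SE 0.11, adjusted p = 3.2e-08). Between iWAT and BAT the scaled log2 fold change was -0.03 (SE 0.09, 95% interval -0.23 to 0.17, adjusted p = 0.74), although every iWAT library had a higher deposited RPKM than any BAT library. The direction here depends on the scaling, since without TMM it was 0.82 (adjusted p = 3.6e-06). The opposite-strand row 3110002H16Rik overlaps Npc1 and held 923 to 1089 reads in iWAT beside 1454 to 2199 on Npc1. In eWAT it held 876 to 1447 reads beside 3332 to 7466, and in BAT 497 to 818 beside 818 to 1850. Reads of this pair cannot be told apart either, so the Npc1 values are uncertain by a share that differs between depots.

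Npc2 (mm9 chr12:86095509-86114062, minus strand), the soluble partner that binds cholesterol inside the lysosome, had the lowest coefficient of variation of the 9 genes in each depot. In iWAT it ran from 73.2 through 81.6 to 88.0 RPKM, a coefficient of variation of 6.64%. In eWAT it ran from 86.1 through 94.8 to 112 and in BAT from 19.9 through 24.3 to 26.9 RPKM. The white depots overlapped, with BAT below both. Npc2 was 1.18-fold higher in eWAT than in iWAT (log2 -0.24 for iWAT over eWAT, SE 0.09, edgeR adjusted p = 0.027), a call that was lost with upper-quartile factors (adjusted p = 0.079), with no filter beyond 1 read (0.098), within either lane (0.16 and 0.50) and without any one of iWAT replicates 1, 3 and 5 or eWAT replicates 2 and 5 (adjusted p from 0.051 to 0.082). It was 2.25-fold higher in iWAT than in BAT (log2 1.17, SE 0.08, adjusted p = 4.4e-09) and 2.71-fold higher in eWAT (log2 1.44, SE 0.09, adjusted p = 4.7e-10).

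Mylip (mm9 chr13:45485110-45507388, plus strand), the ubiquitin ligase that limits lipoprotein uptake, was the only one of the 9 genes called higher in iWAT than in eWAT by edgeR with TMM scaling and the minimum of 10 reads. Scarb1 was called too by DESeq2 (adjusted p = 0.035) and by edgeR with upper-quartile factors (0.029), with no filter beyond 1 read (0.043) or with all 18 libraries fitted together (0.031). Its iWAT values were 14.4 RPKM at the lowest, 20.5 at the median and 32.8 at the highest, with replicates 1, 4 and 5 at 30.0, 24.998 and 32.8 and the other 3 between 14.4 and 16.1. The eWAT libraries held 7.81 to 13.4 RPKM (median 11.0), all below iWAT, and the BAT libraries 4.65 to 9.49 (median 5.84), which reached into the eWAT range. Mylip was 2.04-fold higher in iWAT than in eWAT (log2 1.03, SE 0.21, edgeR adjusted p = 0.00075) and 2.35-fold higher in iWAT than in BAT (log2 1.23, SE 0.21, adjusted p = 5.8e-05). It did not pass between eWAT and BAT (log2 0.23, SE 0.17, 95% interval -0.15 to 0.61, adjusted p = 0.22).

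The white depots share lanes 1 and 2, so the comparison between them was repeated within each lane. Soat1 was at -1.78 in lane 1 and -2.26 in lane 2, Lipa at -1.81 and -2.21, Npc1 at -1.15 and -1.42, Abcg1 at -1.07 and -1.16 and Mylip at 1.07 and 1.05 (log2 fold change of iWAT over eWAT). Each of these 5 genes passed in either lane, with edgeR adjusted p of at most 0.029.

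Ratios of a pair of genes within a library do not depend on the library's scaling. Those with Lipa, Scarb1 or Npc1 carry the uncertainty from their opposite-strand rows given above. Of 12 ratio comparisons (4 ratios in 3 comparisons, exact permutation test of 6 against 6, two-sided, smallest p 0.0022), 8 passed after Benjamini-Hochberg adjustment. Soat1 per Lipa was 0.160 ± 0.00581 in iWAT and 0.163 ± 0.0122 in eWAT (SD, n = 6), a difference of -0.02 on the log2 scale (exact p = 0.67). Each gene alone differed about as much as Cd68 there, and the part of macrophages in this was not tested. In BAT the Soat1 per Lipa ratio was 0.0150 ± 0.00269, or 10.9-fold lower than in iWAT and 11.0-fold lower than in eWAT (exact p = 0.0022 and adjusted p = 0.0037 for both, no overlap). Soat1 had only 24 to 80 reads a library in BAT. Abcg1 per Abca1 was 0.549 ± 0.0768 in iWAT, 1.11 ± 0.261 in eWAT and 0.262 ± 0.0550 in BAT, and all 3 differences passed with no overlap (exact p = 0.0022, adjusted p = 0.0037). Npc2 per Npc1, which carries the uncertainty of the Npc1 reads given above, was 16.6 ± 2.90 in iWAT against 8.19 ± 1.90 in eWAT and 7.15 ± 0.855 in BAT. The iWAT ratio was higher than either (exact p = 0.0022, adjusted p = 0.0037), and eWAT and BAT did not differ beyond their spread (exact p = 0.30). Scarb1 per Abca1 was 0.686 ± 0.222, 0.472 ± 0.0768 and 0.755 ± 0.161 in iWAT, eWAT and BAT. It was lower in eWAT than in BAT (exact p = 0.0043, adjusted p = 0.0065) and did not pass between the white depots (exact p = 0.058).

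**Figure D3:**
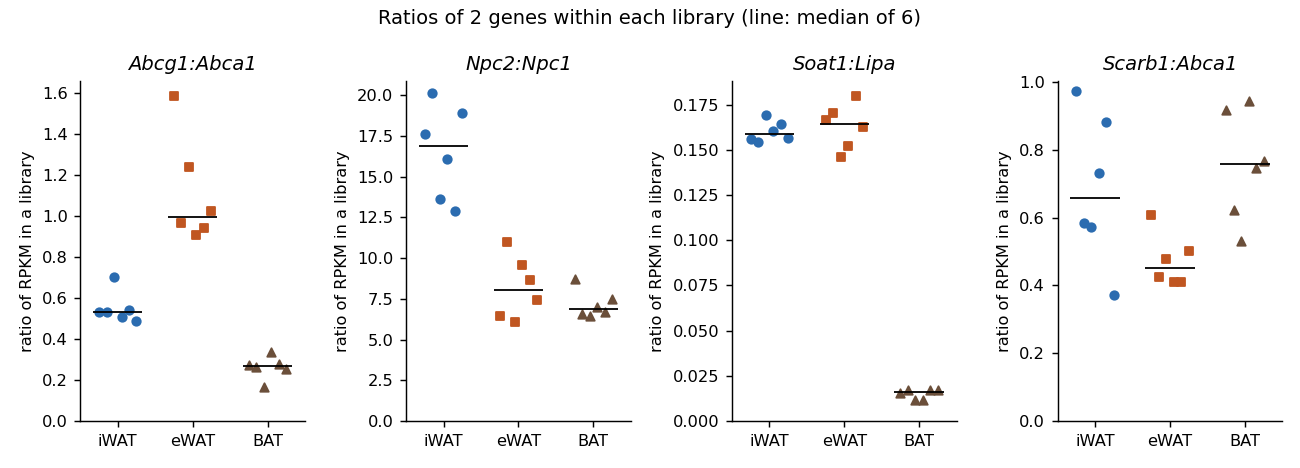
Ratio of the RPKM of a pair of genes within each library on linear axes from 0, 6 libraries a depot, with a line at the median. Soat1 per Lipa lies between 0.146 and 0.180 in all white-depot libraries and at 0.0173 or lower in BAT, while Abcg1 per Abca1 differs between all 3 depots.

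Within a depot, some of the genes rose and fell with the macrophage markers from library to library, but no such relation passed after adjustment. For each gene and depot the log2 TMM-scaled RPKM was correlated with the log2 sum of the 16 macrophage markers over the 6 libraries (27 correlations, exact over all 720 pairings). None passed after adjustment and 7 had an unadjusted exact p under 0.05. In iWAT, r was 0.972 for Soat1 (exact p = 0.0097, rho 0.886, exact p = 0.033), 0.965 for Lipa (exact p = 0.0097, rho 0.886, exact p = 0.033) and 0.963 for Npc1 (exact p = 0.0069, rho 0.943, exact p = 0.017), each with an adjusted exact p of 0.066. Without the 2 libraries farthest from the median of the markers, these r were 0.911, 0.883 and 0.965. In eWAT, Lipa had r = 0.993 (exact p = 0.0069, adjusted 0.066, rho 0.943, exact p = 0.017, and r = 0.874 without 2 libraries). Soat1 in eWAT had r = 0.875 (exact p = 0.042) and Abcg1 r = 0.820 (exact p = 0.026), and both rest on 2 libraries, without which r was 0.217 and 0.0504. In BAT, Soat1 had r = 0.931 (exact p = 0.014, adjusted 0.075, rho 0.943, exact p = 0.017, and r = 0.927 without 2 libraries). On deposited RPKM in place of scaled values 5 correlations passed, those of Soat1, Lipa and Npc1 in iWAT, of Lipa in eWAT and of Soat1 in BAT, with adjusted exact p from 0.025 to 0.030. Without TMM scaling, a factor shared by all genes of a library can enter both values. In BAT, r was higher for every gene on deposited RPKM than on scaled values, from -0.396 to 0.585 for Npc2 and from -0.467 to 0.302 for Scarb1.

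For Abca1 and Apoe no relation to these markers was detectable with 6 libraries. Their r was -0.115 and -0.128 in iWAT (exact p = 0.84 and 0.80), -0.493 and 0.139 in eWAT (exact p = 0.45 and 0.79) and 0.322 and 0.107 in BAT (exact p = 0.53 and 0.83). Npc2 had r = -0.451 in iWAT (exact p = 0.38) and -0.803 in eWAT (exact p = 0.056). With 6 libraries, r has wide limits, and lanes hold 2 or 4 libraries of a depot, too few for a value within each.

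**Figure D4:**
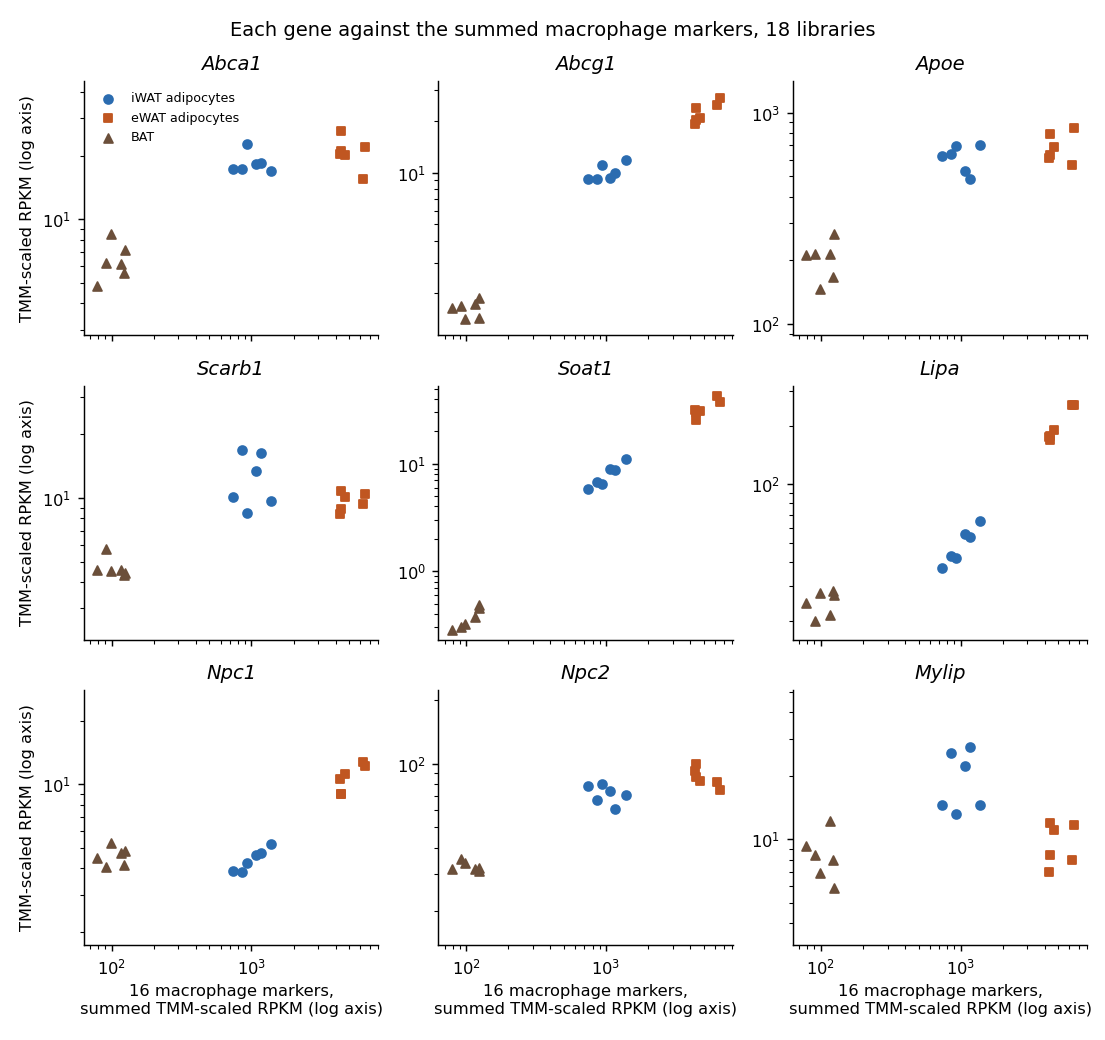
TMM-scaled RPKM of each gene against the summed TMM-scaled RPKM of 16 macrophage markers, both on log axes, 18 libraries with 6 a depot. Within iWAT the points of Soat1, Lipa and Npc1 climb with the markers (r = 0.972, 0.965 and 0.963), while those of Abca1 and Apoe do not (r = -0.115 and -0.128).

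In iWAT, Scarb1 and Mylip rose and fell with a list of endothelial markers, past the threshold within that list but not over all lists together. This list was tried after it was seen that both genes were high in the same iWAT libraries, replicates 1, 4 and 5. The summed RPKM of the 6 endothelial markers was 259, 193 and 305 in those libraries and 106 to 146 in the other 3. Cdh5, at a mean of 111 RPKM in iWAT, made up most of this sum. The correlations below were computed on log2 TMM-scaled RPKM and not on these deposited values. On the scaled values Mylip was nearly tied in iWAT replicates 2 and 3 (14.53 and 14.52), against 15.8 and 16.1 in deposited RPKM, so their order depends on the scale. Over the 6 iWAT libraries r was 0.982 for Scarb1 (exact p = 0.0028, rho 0.943, exact p = 0.017, and r = 0.990 without 2 libraries) and 0.973 for Mylip (exact p = 0.0014, rho 1, exact p = 0.0028, and r = 0.963 without 2 libraries). The adjusted exact p of both was 0.037 over the 27 correlations with this list, and 0.075 and 0.056 over all 81 with the macrophage, endothelial and adipocyte lists. In eWAT, r was 0.879 for Scarb1 and 0.948 for Mylip (exact p = 0.039 and 0.024), and in BAT 0.293 and 0.244 (exact p = 0.52 and 0.66). Other genes had a high r with this list too, none past the threshold after adjustment. In eWAT, Apoe had r = 0.925 (exact p = 0.014, adjusted 0.094, rho 0.943, exact p = 0.017, and r = 0.901 without 2 libraries) and Abca1 r = 0.809 (exact p = 0.025, adjusted 0.11, rho 0.829, exact p = 0.058, and r = 0.457 without 2 libraries, on which it rests). Npc2 in iWAT and Npc1 in BAT ran against it, at r = -0.843 and -0.952 (exact p = 0.036 and 0.0083, adjusted 0.13 and 0.075), with rho of -0.829 and -0.886 (exact p = 0.058 and 0.033). Between the white depots the endothelial marker Cdh5 was at 111 ± 45.3 RPKM in iWAT and 30.8 ± 9.49 in eWAT (log2 1.84, SE 0.26, edgeR adjusted p = 4.5e-05), the same direction as Mylip. There 5 of the 6 endothelial markers were higher in iWAT and 1 did not pass. In eWAT, 5 of the 6 markers were lower than in BAT (median log2 -1.31), whereas Scarb1 was higher and Mylip did not pass. In iWAT, 2 of the 6 were higher than in BAT and 4 did not pass (median 0.08), whereas Scarb1 and Mylip were both higher. The part of endothelial cells in these differences was not tested.

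In iWAT, Npc2 rose and fell with the summed TMM-scaled RPKM of the 8 adipocyte markers (both as log2), a list also added after values had been seen. This relation passed the threshold within the list but not over all lists together. Fabp4 averaged 10486.5 RPKM in iWAT, where the median sum was 14497, so r with this sum rests mainly on Fabp4. There its r with their sum was 0.997 (exact p = 0.0014, rho 1, exact p = 0.0028, and r = 0.990 without 2 libraries), with an adjusted exact p of 0.037 over the 27 correlations of this list and 0.056 over all 81. In eWAT its r was 0.877 (exact p = 0.022, adjusted 0.15, rho 0.943, exact p = 0.017), where Lipa, Npc1 and Soat1 ran against these markers at -0.947, -0.909 and -0.829 (exact p = 0.0097, 0.022 and 0.049, adjusted 0.13, 0.15 and 0.22). In BAT, Mylip had r = 0.853 (exact p = 0.037, adjusted 0.20).

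Pairs of the 9 genes were then set against each other within a depot, 108 pairs in all, a family also added after the values had been seen. Log2 TMM-scaled RPKM was used for these as well. None passed after adjustment and 10 had an unadjusted exact p under 0.05. The closest pair was Soat1 with Lipa in iWAT (r = 0.999, exact p = 0.0014, the smallest possible, rho 1, exact p = 0.0028, adjusted exact p = 0.12, and r = 0.997 without 2 libraries), with r = 0.921 in eWAT (exact p = 0.011). Scarb1 with Mylip had r = 0.987 in iWAT (exact p = 0.0042, rho 0.943, exact p = 0.017) and 0.963 in eWAT (exact p = 0.0056, rho 0.943, exact p = 0.017), with adjusted exact p of 0.12 for both.

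**Figure D5:**
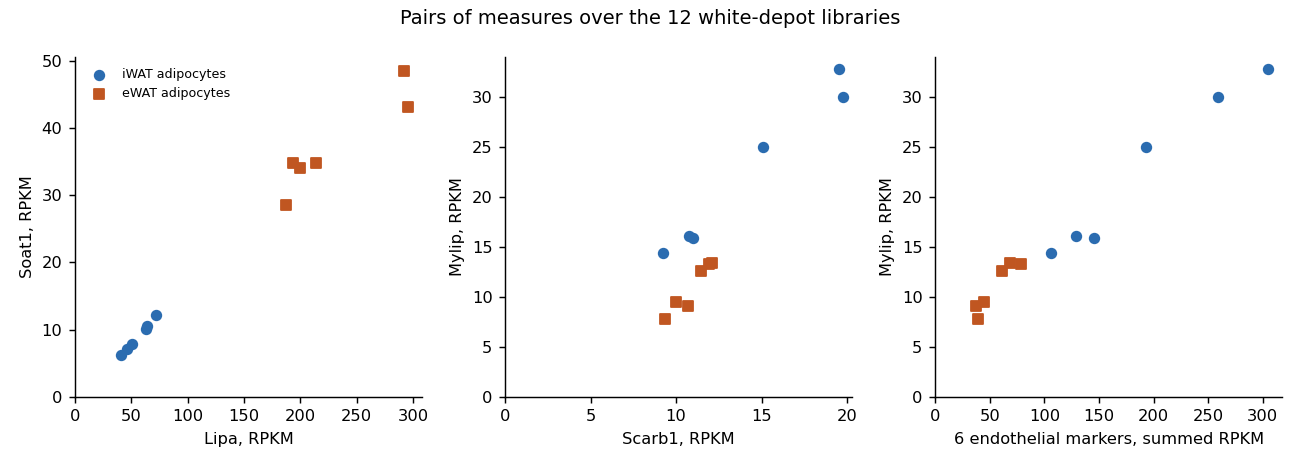
Soat1 against Lipa, Mylip against Scarb1 and Mylip against the summed endothelial markers, deposited RPKM on linear axes from 0, in the 6 iWAT (circles) and 6 eWAT (squares) libraries. Soat1 and Lipa lie near a single line through both depots, and Mylip reaches 32.8 RPKM in the iWAT library whose endothelial markers sum to 305.

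The wider pathway was described with 50 other genes in 7 lists, of which 44, 43 and 42 could be tested for iWAT against eWAT, iWAT against BAT and eWAT against BAT. Between the white depots 32 passed, 15 higher in iWAT and 17 higher in eWAT, with a median log2 fold change of -0.10. Against BAT, 36 passed for iWAT (20 higher in iWAT, 16 in BAT, median 0.21) and 38 for eWAT (20 higher in eWAT, 18 in BAT, median 0.03). With TMM scaling these counts and directions sat near those of all genes given above. The split against BAT depended on the scaling and widened towards the white depots without TMM. With none beyond the total it was 34 higher in iWAT to 3 in BAT and 28 higher in eWAT to 9 in BAT, and with limma on log2(RPKM + 0.1) it was 30 to 5 and 27 to 12. Under each of these settings the 9 genes were higher in the white depots wherever they passed against BAT.

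The LXR and RXR receptor genes also differed between depots, with directions against BAT that in part turned with the scaling. Nr1h3, which encodes LXRα, was at 27.9 ± 2.80 RPKM in iWAT, 20.8 ± 1.54 in eWAT and 15.9 ± 2.53 in BAT, with log2 fold changes of 0.43 for iWAT over eWAT (SE 0.09, edgeR adjusted p = 0.0006), 0.21 for iWAT over BAT (SE 0.09, adjusted p = 0.044) and -0.20 for eWAT over BAT (SE 0.08, adjusted p = 0.027). The last ran against the RPKM, and without TMM scaling it was 0.71 (adjusted p = 2.1e-05). Nr1h2, which encodes LXRβ, was at 12.2 ± 1.09, 13.5 ± 1.20 and 9.95 ± 1.67 RPKM and passed only between iWAT and BAT (log2 -0.31, SE 0.08, adjusted p = 0.0022), which also turned without TMM, to 0.54 (adjusted p = 0.00054). All 4 LXR and RXR genes passed between iWAT and BAT, with Rxrb at -1.11 the widest (-0.26 without TMM, adjusted p = 0.074), and 2 of 4 passed between the white depots, both higher in iWAT, with Rxra at 0.76 the wider. Of the 10 other LXR-induced genes, 8 could be tested, and 5 passed between the white depots in both directions (3 higher in iWAT and 2 in eWAT, Scd1 the widest at 1.51). In the same list 6 passed between iWAT and BAT and 8 between eWAT and BAT, with Apoc2, which encodes the activator of lipoprotein lipase, at 3.34 and 3.69.

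Among the other cholesterol ester enzymes, Nceh1, a neutral cholesterol ester hydrolase of macrophages, had a pattern close to that of Soat1. It averaged 17.1 ± 4.47 RPKM in iWAT, 69.4 ± 11.9 in eWAT and 0.778 ± 0.180 in BAT, with log2 fold changes of -2.02 (SE 0.17), 3.84 (SE 0.19) and 5.89 (SE 0.18) and edgeR adjusted p of at most 5.7e-07. In the list of lipoprotein and sterol uptake, Lrp8, an ApoE receptor, was the widest between the white depots at -2.53 but low in level, at 0.0927 ± 0.0329 and 0.537 ± 0.246 RPKM. The scavenger receptor Msr1 was the widest of that list against BAT, at 3.68 for iWAT and 6.20 for eWAT. In the list of other lysosomal and intracellular sterol carriers, 13 of 16 passed between the white depots (6 higher in iWAT, 7 in eWAT), led by Osbpl8 at -1.43, and 13 and 14 passed against BAT, led by Gramd1b at 2.23 for iWAT and Gramd1c at -3.37 for eWAT. Cyp27a1, which makes the LXR ligand 27-hydroxycholesterol, was highest in BAT at 16.5 ± 1.78 RPKM, against 4.34 ± 0.563 in iWAT and 6.97 ± 0.846 in eWAT (log2 -2.53 and -1.83 against BAT, adjusted p of at most 5.9e-11). In the list of other sterol transporters and HDL factors, Abcg4 was the widest between the white depots (1.18) and Lcat against BAT (-1.36 and -1.61, no longer past the threshold without TMM, at -0.52 and -0.73), all at mean levels of 0.472 RPKM or lower.

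For each of the 9 genes the most alike among 19941 genes was named by Pearson's r of log2(TMM-scaled RPKM + 0.1) over the 18 libraries, a description that rests mainly on depot differences. Soat1 was most like AK152883 (r = 0.999), Dock2 (0.999) and Cotl1 (0.999), and with depot means taken out these r were 0.926, 0.911 and 0.920. Lipa was most like 5031439G07Rik (0.996), Slc17a5 (0.996) and Cln8 (0.995), Npc1 like Sgpl1 (0.990) and Ercc6 (0.989), and Abcg1 like Dok1 (0.996), Gm5637 (0.996) and Glb1 (0.995). Mylip was most like Spry1 (0.955), Igfbp7 (0.931) and Ctla2a (0.930), with 0.880, 0.765 and 0.769 within depots. Scarb1 was most like its overlapping row LOC100503284 (0.984), Kcne4 (0.981) and Olfm2 (0.979). Apoe was most like Os9 (0.973), Gm16491 (0.970) and Fgfr1 (0.970), Npc2 like Slc39a1 (0.986), Rab15 (0.986) and Spc25 (0.985), and Abca1 like AK156699 (0.984), A130040M12Rik (0.981) and ENSMUSG00000085401 (0.979).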

How the data were processed

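RNA was measured by RNA-seq in 18 libraries: iWAT adipocytes, eWAT adipocytes and BAT, 6 each. Libraries (NEBNext Ultra) were sequenced by the authors on a HiSeq machine, and reads were mapped to mm9; the submitters' processing notes list cutadapt 1.16 and HISAT2 2.1.0. The counting program, annotation, strand setting and treatment of reads that fit several rows are not given in the sources used here. The deposited tables hold, for 53445 rows, a read count (whole reads) and an RPKM that the authors computed from it with the row's length and 1 total per library, with no other scaling. A symbol with several rows was taken by the row of highest mean RPKM.

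Counts were tested with edgeR 4.0.16 (quasi-likelihood, TMM, genes with a mean of at least 10 reads, the 12 libraries of a comparison), adjusted by Benjamini-Hochberg over all genes tested, with 0.05 as the threshold. Log2 fold changes are the first depot over the second, their SE is the fold change divided by the root of F, and 95% intervals use 10 residual degrees of freedom. The test recovered known changes in simulated data, where a small set of genes changed, equally up and down, around the means of a single depot. Scaling between depots as unlike as BAT and the white depots was not tried in this way. Alternatives used DESeq2 1.42.0 and limma 3.58.1. Within-library ratios used all 924 splits and correlations all 720 pairings (scipy 1.17.1). Samples were grouped by their titles; the labels number libraries but do not say that a number marks a mouse, or that each library is a separate mouse, so p-values measure the spread between these libraries. Depth was 24655056 to 42518483 reads on rows, and no library pair agreed within sampling noise (lowest chi-square per degree of freedom 15.7). Named were all 9 genes, Nr1h3 and Nr1h2, the widest called gene of each pathway list, 5 marker genes, and the 3 genes most like each member; 2 further genes that this rule names are not reported here. The members and lists were chosen with earlier results of these data known. Promoter windows come from RefSeq (GRCm38.p6) and were placed in mm9 by exact match.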

Additional observations from a re-analysis of the deposited data

Results flagged for a closer look

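Mylip in BAT replicate 17 stood at 9.49 RPKM, with the next library at 6.37 and the lowest at 4.65, a gap of 0.644 of the whole range of the 6 libraries. It was the only one of 27 gene and depot groups in which a single library stood this far from the rest, where chance gives about 1.35. Without this library, the log2 fold change of Mylip for eWAT over BAT was 0.36 (edgeR adjusted p = 0.048) in place of 0.23.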

How the results depend on the processing

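Of 594 values of a single gene under an alternative, 566 kept their direction and their side of the threshold, 12 passed newly, 9 no longer passed and 7 turned direction. Of those that turned, 6 were Npc1 for iWAT over BAT, at 0.82 with no scaling beyond the total, 0.067 with no filter beyond 1 read, 0.56 and 0.46 with limma on log2(RPKM + 0.1) and log2(RPKM + 1), and from -0.094 to 0.0052 with 1 library left out (above 0 without iWAT replicate 1 or BAT replicate 5); the other was Abca1 for iWAT over eWAT, at 0.14 in lane 2 only. Requiring a log2 fold change over 1 left 3 of the 9 genes between the white depots, and 6 and 12 of the other pathway genes for iWAT against eWAT and BAT. With 1 library left out, the 9 genes gave 5 to 7 calls between the white depots, 8 for iWAT against BAT and 8 to 9 for eWAT against BAT, and the ratios 8 to 9. With no scaling or limma on RPKM all 9 were higher in either white depot than in BAT; calls over all genes then split 13703 to 3054 for iWAT over BAT and 12965 to 4061 for eWAT over BAT with no scaling, against 7528 to 7336 and 8243 to 8318, and 12752 to 4402 and 11972 to 5740 with limma. Correlations with macrophage markers past the threshold numbered 0 in the main setting, 5 on deposited RPKM and 4 with Cd68 alone (Soat1, Lipa and Npc1 in iWAT, and Scarb1 in BAT with a negative r); the cause was not tested. With GENCODE lengths, a setting added after seeing the data, 5, 6 and 5 of the 9 genes kept their place in the order of levels in iWAT, eWAT and BAT. Depth limits Soat1 in BAT most, at 24 to 80 reads a library. No pairing by the numbers in the titles was detected: same-numbered iWAT and eWAT libraries had correlations of their deviations from -0.247 to 0.431, and 1 of 6 correlated best with its own number. This cannot decide if a number marks a mouse, since differences between depots may hide what libraries of a mouse share. With the number as a replicate block the 9 genes gave 6, 8 and 8 calls and no call of theirs changed, while the other pathway genes gave 32, 30 and 33 in place of 32, 36 and 38.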

Other observations

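Some enzymes and receptors of neighbouring routes, picked after their values were seen, are given here. Lipe, the hormone-sensitive lipase that also hydrolyses cholesterol ester in adipocytes, was higher in iWAT than in eWAT (log2 1.47) and lower in eWAT than in BAT (-1.87). Against BAT its direction in iWAT turned with the scaling, at -0.42 with TMM and 0.43 without, with 193 ± 28.7 RPKM in iWAT and 169 ± 12.4 in BAT. The VLDL receptor gene Vldlr was higher in iWAT than in eWAT (1.53), while Lrp1, a receptor for ApoE-bearing particles, was lower there (-1.13). Apoc1, which lies beside Apoe in the genome, was higher in iWAT than in eWAT (1.21) and lower in iWAT and in eWAT than in BAT (-1.86 and -3.05), in the opposite direction to Apoe against BAT.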
